A study of Mus musculus with 2 samples.

Results

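The Toll-like receptor family is described here in RNA sequencing of sorted macrophages from the aortas of mice with dyslipidemia. Its members are the 10 genes Tlr1 to Tlr9 and Tlr13, taken by gene name from the deposited table of 54532 genes. All 10 were found, each in 1 row.

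The study compared macrophage transcripts between models of 2 syndromes of traditional Chinese medicine, phlegm-dampness retention (PDR) and spleen and kidney Yang deficiency (SKYD). All mice were male ApoE-/- animals on a C57BL/6J background, 6 weeks old, that lack apolipoprotein E and accumulate lipoproteins in blood. Mice of the PDR group ate a high-fat diet for 4 weeks. Mice of the SKYD group received propylthiouracil, a drug that lowers thyroid hormone, by gavage at 10 mg/kg per day for 4 weeks and then high-fat chow for 2 weeks. Cells of digested aortas were sorted on F4/80 and CD11b, and those of 5 mice were pooled into 1 library a group, called the PDR pool and the SKYD pool below. There was therefore no replicate, no spread between mice could be measured, and no test of a difference was made. Syndrome, drug, time on the diet and age at sampling cannot be told apart between the libraries.

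Toll-like receptors are membrane proteins of the innate immune system that bind microbial molecules through leucine-rich repeats and signal through a cytoplasmic TIR domain. Members at the cell surface mainly bind lipids and proteins of microbes, whereas members in endosomes bind nucleic acids. They signal through the adaptors Myd88 and Ticam1 to NF-kB and interferon regulatory factors, and in the arterial wall macrophages are a main cell type that carries them.

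Values are FPKM, the reads on a gene per kilobase of gene length and per 1000000 of a library size. The reads behind them were recovered as whole numbers, and they sum to 23086889 on genes in the PDR pool and 25427863 in the SKYD pool. The library size behind the FPKM was 1.02 times this sum in the PDR pool and 0.983 times in the SKYD pool, so folds of FPKM are slightly smaller than ratios per 1000000 reads on genes, such as 1.99 against 2.06 for Tlr4. A difference is the log2(FPKM + 1) of the PDR pool less that of the SKYD pool, and a gene was compared where its mean FPKM was at least 1. Brackets give 95% intervals, which cover counting error only: exact Clopper-Pearson limits on the split of a gene's reads between the libraries for differences and folds, and exact Poisson limits for a single FPKM. A count of 0 is taken to allow up to 3 reads, a limit on the upper side alone, while the Poisson limits are drawn on both sides.

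Of the 10 members, 7 reached a mean FPKM of 1, and Tlr3, Tlr5 and Tlr9 did not. Of these 7, 6 were higher in the PDR pool and Tlr8 was slightly higher in the SKYD pool, and these directions were the same as TPM, as reads per 1000000 reads on genes and after centring, though not relative to every marker gene tried. The intervals of 5 of the 6 lay above 0, and those of Tlr6 and Tlr8 included 0. The median difference of the 7 was 0.78, beside -0.0035 for all 10399 genes compared, and without the filter the median of all 10 was 0.46. Past 2-fold toward the PDR pool, that is with a difference above 1, were 2 of the 7, Tlr1 and Tlr2, and 0 lay past 2-fold toward the SKYD pool. All counts past or within 2-fold use the log2(FPKM + 1) scale, on which the added 1 shrinks the fold of a gene with low FPKM. Among all genes compared, 7.38% passed 2-fold toward the PDR pool, 6.91% toward the SKYD pool and 14.3% either way. With so few members, this count is a description of these genes and no more. In bulk libraries such as these, fewer cells of a type and less RNA per cell cannot be told apart.

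**Figure D1:**
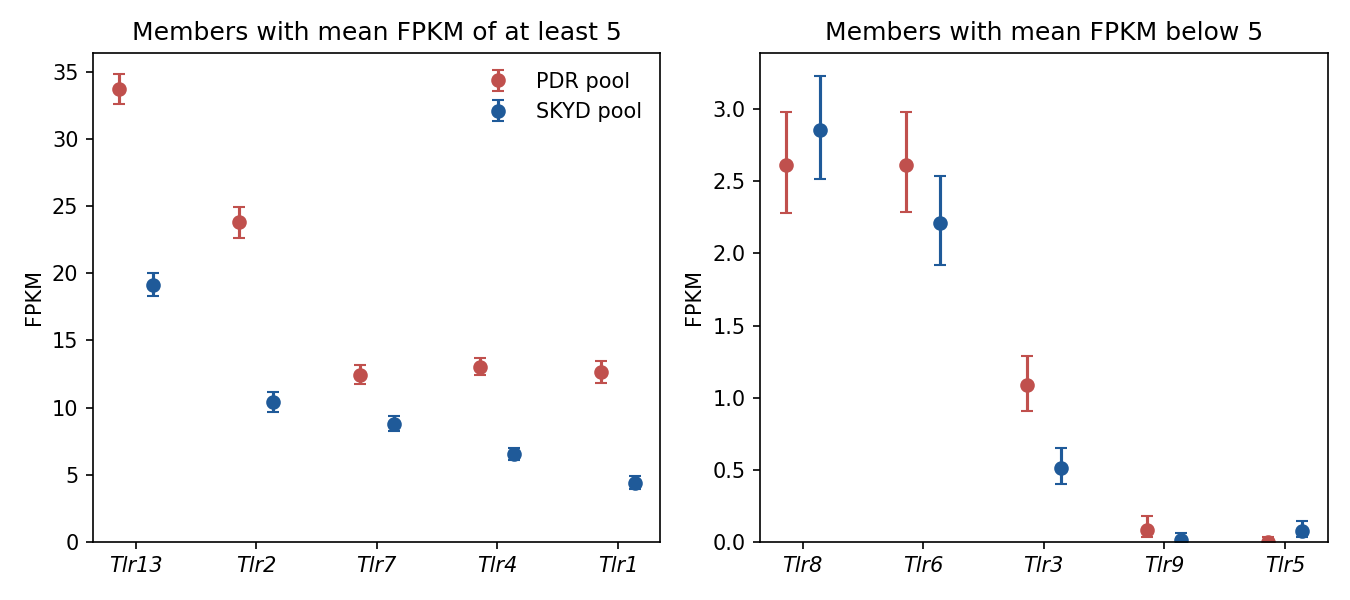
FPKM of each member in the PDR pool (red) and the SKYD pool (blue), with exact 95% Poisson limits as bars; both axes are linear and start at 0. The 5 members with a mean FPKM of at least 5 lie higher in the PDR pool, while Tlr8, Tlr6, Tlr3, Tlr9 and Tlr5 have low values in both.

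Tlr2 (ENSMUSG00000027995, chr3:83836272-83841767) is the surface receptor for bacterial lipoproteins and works in pairs with Tlr1 or Tlr6. It had 23.8 FPKM (22.7 to 24.95) from 1684 reads in the PDR pool. In the SKYD pool it had 10.4 FPKM (9.70 to 11.2) from 785 reads. The level of Tlr2 was thus 2.28-fold higher in the PDR pool (2.10 to 2.49), a difference of 1.12 (1.0 to 1.23). It was the second most abundant member per length in both libraries.

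Tlr1 (ENSMUSG00000044827, chr5:64924679-64933563) joins Tlr2 in the recognition of triacylated lipopeptides. Its level was 12.6 FPKM (11.9 to 13.4) from 993 reads in the PDR pool and 4.40 FPKM (3.96 to 4.87) from 368 reads in the SKYD pool. This was the largest difference among the 7 members compared, at 2.87-fold (2.55 to 3.25) or 1.34 on the log2 scale (1.19 to 1.48). Of all genes compared, 501 (4.82%) had a larger difference toward the PDR pool than Tlr1, and 657 (6.32%) had a larger one than Tlr2.

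Tlr6 (ENSMUSG00000051498, chr5:64952031-64960097) lies next to Tlr1 on the same strand of chromosome 5 and pairs with Tlr2 for diacylated lipopeptides. It had 2.62 FPKM from 229 reads in the PDR pool and 2.21 FPKM from 206 reads in the SKYD pool. The difference of Tlr6 was 0.17, with an interval that includes 0 (-0.025 to 0.37), so no difference was detectable at this depth. Between Tlr1 and Tlr6 the folds themselves differed, with that of Tlr1 2.43 times that of Tlr6 (1.93 to 3.05, exact conditional limits). Per length, Tlr1 was 4.83 times as abundant as Tlr6 in the PDR pool and 1.99 times as abundant in the SKYD pool. The ratio of Tlr2 to Tlr6 moved the same way, from 4.71 in the SKYD pool to 9.09 in the PDR pool. The partners Tlr2 and Tlr1 differed less from each other, since the fold of Tlr2 was 0.795 times that of Tlr1 (0.684 to 0.923).

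Tlr1 and Tlr6 also share sequence. Of the 3282 distinct windows of 100 bases in Tlr1 transcripts, 259 (7.89%) occur unchanged in Tlr6 transcripts, and these make up 7.09% of the windows of Tlr6. A read inside such a window cannot be placed on 1 of these genes by its own sequence, though its mate outside the window can be. No window of 100 bases in any other member occurs in another member, and the windows of Tlr2, Tlr4, Tlr5, Tlr7, Tlr8, Tlr9 and Tlr13 occur in no other gene. Tlr3 shares 3.32% of its windows with Gm45542, an antisense gene over its span that had 0 reads in both libraries.

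Tlr4 (ENSMUSG00000039005, chr4:66827584-66930284) is the receptor for lipopolysaccharide of gram-negative bacteria. It had 13.05 FPKM (12.4 to 13.7) from 1703 reads in the PDR pool and 6.55 FPKM (6.13 to 6.99) from 909 reads in the SKYD pool. The fold of Tlr4 was 1.99 (1.84 to 2.16) and its difference 0.90 (0.79 to 1.0), just short of the 2-fold line. As reads per 1000000 reads on genes without a pseudocount, the difference of Tlr4 was 1.05 and passed that line.

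Tlr5 (ENSMUSG00000079164, chr1:182954788-182976044), the flagellin receptor, had 0 reads in the PDR pool and 9 reads in the SKYD pool. These 9 reads are 0.0752 FPKM, and the 3 reads that a count of 0 allows are 0.0267 FPKM in the PDR pool. Taken against those 3 reads, the 9 reads are at least 2.82-fold higher in the SKYD pool, with no allowance for the counting error of the 9. The exact limits on the split of reads, which include that error, put the fold at 1.85 or more. Tlr5 thus lay in the opposite direction to Tlr1, Tlr2 and Tlr4, at a level near the limit of detection in both.

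Tlr13 (ENSMUSG00000033777, chrX:106143204-106160493), an endosomal receptor for bacterial ribosomal RNA, was the most abundant member per length in both libraries. Its level was 33.7 FPKM (32.6 to 34.9) from 3408 reads in the PDR pool and 19.2 FPKM (18.3 to 20.0) from 2061 reads in the SKYD pool. It was 1.76-fold higher in the PDR pool (1.67 to 1.86), a difference of 0.78 (0.71 to 0.86). Tlr13 alone made up 33.0% of the summed FPKM of the family in the PDR pool and 34.8% in the SKYD pool. In the PDR pool 1884 genes of the whole table had a higher FPKM than Tlr13, and in the SKYD pool 2658 had. The 3 protein-coding genes nearest to Tlr13 in log2(FPKM + 1) of both libraries were Rbbp4 at a distance of 0.053, Api5 at 0.083 and Slc35b2 at 0.091. This Euclidean distance rests on 2 libraries only. Rbbp4 had 32.5 FPKM in the PDR pool and 19.0 FPKM in the SKYD pool.

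Tlr7 (ENSMUSG00000044583, chrX:167304929-167330558), the endosomal receptor for RNA rich in guanosine and uridine, had 12.5 FPKM (11.8 to 13.2) from 1195 reads in the PDR pool. In the SKYD pool it had 8.80 FPKM (8.24 to 9.40) from 898 reads. It was 1.42-fold higher in the PDR pool (1.30 to 1.55), a difference of 0.46 (0.34 to 0.57). In the PDR pool the levels of Tlr4, Tlr1 and Tlr7 lay within each other's counting limits. In the SKYD pool the same 3 were spread out, with Tlr7 above Tlr4 and Tlr4 above Tlr1 beyond those limits.

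Tlr8 (ENSMUSG00000040522, chrX:167242696-167264329) is the neighbour of Tlr7 on the same strand of the X chromosome. It had 2.61 FPKM from 220 reads in the PDR pool and 2.86 FPKM from 256 reads in the SKYD pool. Its difference of -0.094 had an interval that includes 0 (-0.29 to 0.10), so a difference of Tlr8 was not detectable at this depth. The fold of Tlr7 was 1.55 times that of Tlr8 (1.26 to 1.90). Per length, Tlr7 was 4.77 times as abundant as Tlr8 in the PDR pool and 3.08 times as abundant in the SKYD pool. Thus in both neighbouring pairs, Tlr1 with Tlr6 and Tlr7 with Tlr8, the more abundant gene was higher in the PDR pool and the less abundant one differed by less.

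Tlr3 (ENSMUSG00000031639, chr8:45395665-45411080), the receptor for viral RNA duplexes that signals through Ticam1, stayed below the filter with a mean FPKM of 0.801. It had 1.09 FPKM (0.911 to 1.29) from 133 reads in the PDR pool and 0.515 FPKM (0.399 to 0.654) from 67 reads in the SKYD pool. Its FPKM was 2.11-fold higher in the PDR pool (1.56 to 2.88). On the log2(FPKM + 1) scale this is 0.46 (0.28 to 0.63), since the added 1 is as large as the level itself. Tlr9 (ENSMUSG00000045322, chr9:106222598-106226883), the receptor for unmethylated CpG DNA, had 7 reads in the PDR pool and 1 read in the SKYD pool. The ratio of these FPKM values, 7.45, has an interval from 0.957 to 336, so a difference of Tlr9 was not detectable at this depth.

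**Figure D2:**
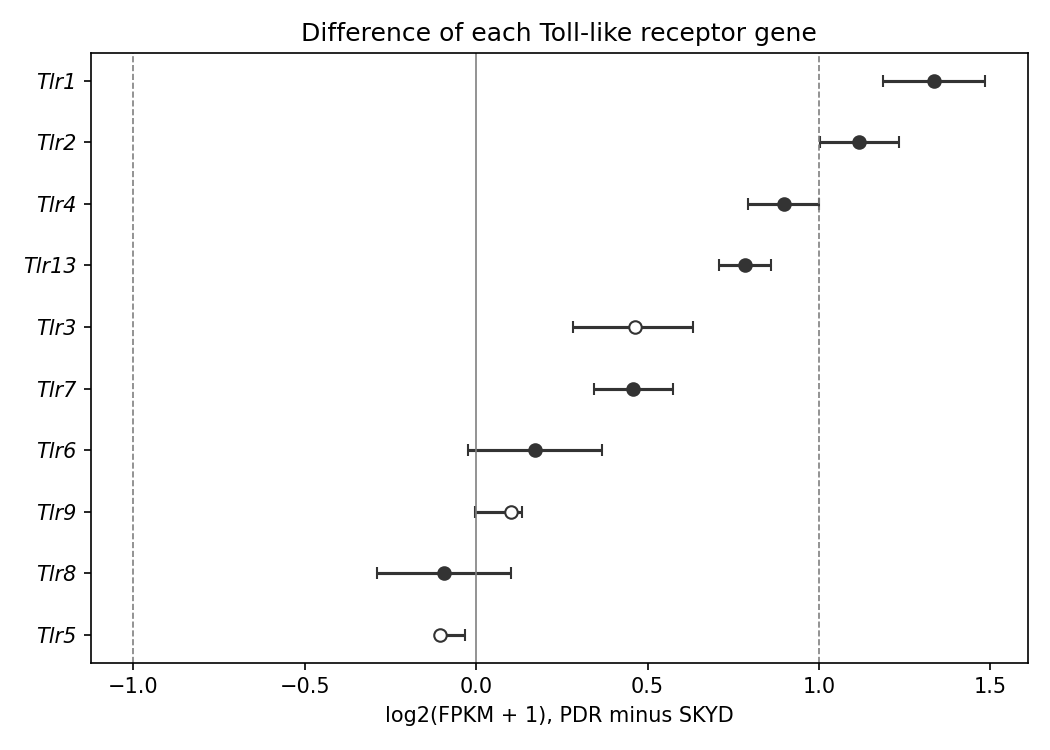
Difference of each member in log2(FPKM + 1), PDR minus SKYD, with 95% limits from the split of its reads; filled points are members with a mean FPKM of at least 1, open points the others, and dashed lines mark 2-fold. Tlr1 and Tlr2 lie past the line toward PDR, and Tlr6, Tlr8 and Tlr9 have intervals that include 0.

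**Figure D3:**
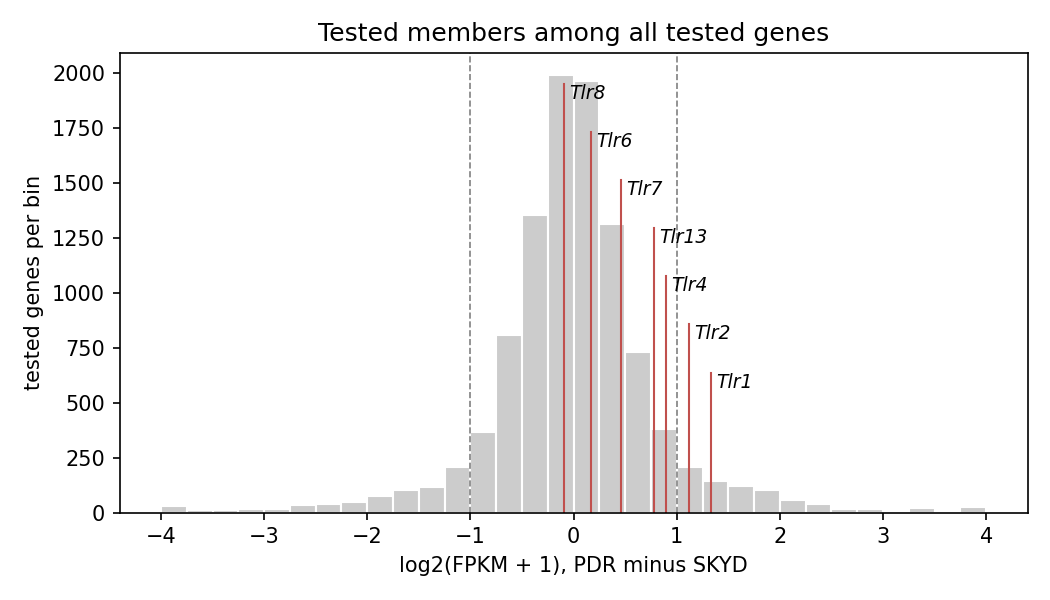
Number of genes in bins of 0.25 of the difference in log2(FPKM + 1), PDR minus SKYD, over the 10399 genes compared, with the 7 members compared as red lines and dashed lines at 2-fold; the 44 genes beyond 4 are in the outermost bins. Tlr8 and Tlr6 stand in the middle of the distribution and Tlr1 and Tlr2 in its right shoulder.

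Divided by place, the 5 surface members (Tlr1, Tlr2, Tlr4, Tlr5 and Tlr6) together had 4609 reads in the PDR pool and 2277 reads in the SKYD pool. Per 1000000 reads on genes this is 200 (194 to 205) in the PDR pool and 89.5 (85.9 to 93.3) in the SKYD pool, a ratio of 2.23 (2.12 to 2.35). The 5 endosomal members (Tlr3, Tlr7, Tlr8, Tlr9 and Tlr13) had 4963 reads in the PDR pool and 3283 reads in the SKYD pool. Theirs were 215 (209 to 221) and 129 (125 to 134) reads per 1000000, a ratio of 1.67 (1.59 to 1.74). The fold of the surface members was 1.34 times that of the endosomal members (1.25 to 1.43). Surface members took 48.2% of the reads of the family in the PDR pool and 41.0% in the SKYD pool. Without Tlr13, the other 4 endosomal members had a ratio of 1.40 (1.30 to 1.51). Single members did not divide by place. The surface member Tlr6 had an FPKM fold of 1.18 (0.976 to 1.43), and Tlr5 had 0 reads against 9 reads. The endosomal member Tlr3 had a fold of 2.11 (1.56 to 2.88), beside 1.99 for the surface member Tlr4. The whole family summed to 415 reads per 1000000 in the PDR pool and 219 in the SKYD pool.

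**Figure D4:**
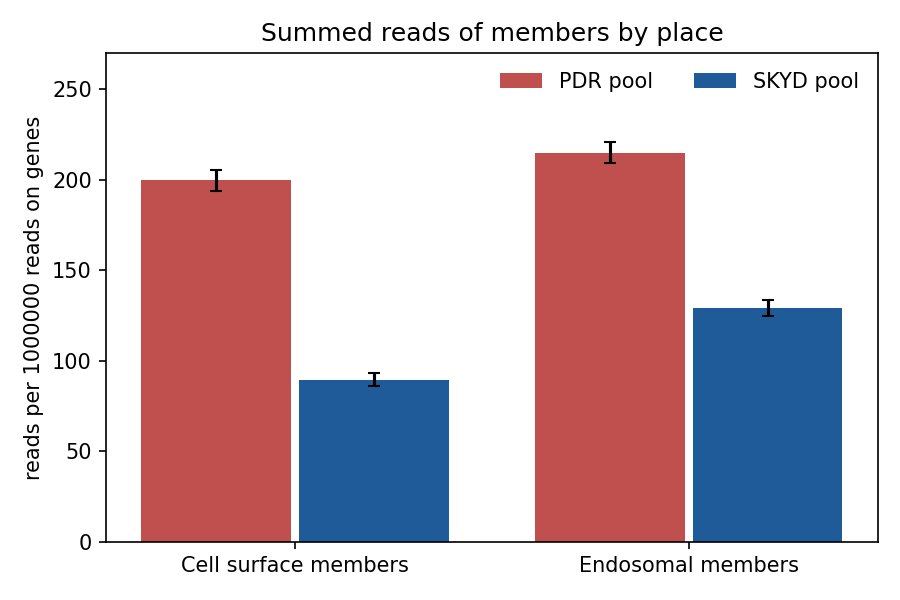
Summed reads of the 5 surface members and the 5 endosomal members per 1000000 reads on genes, in the PDR pool (red) and the SKYD pool (blue), with exact 95% binomial limits as bars; the axis starts at 0. Both sums are higher in the PDR pool, and the gap is wider for the surface members, 200 against 89.5.

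The members also share features of gene structure. In the longest coding transcript of Tlr1, Tlr2 and Tlr6 in the GENCODE annotation, the whole reading frame lies in 1 exon. For 8 of the 10 members at least 95% of the coding bases are in a single exon, and the exceptions are Tlr4 with 89.7% and Tlr3 with 68.3%. Coding lengths run from 2352 bases in Tlr2 to 3150 bases in Tlr7. The endosomal members Tlr7, Tlr8 and Tlr13 are all on the X chromosome, so 3 of the 10 members are X-linked.

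Promoters are shown for the members on which the comparison turns, and for Tlr1 and Tlr6 at the 1 of 2 starts that held a match: Tlr1 and Tlr2, which passed 2-fold together, Tlr6, the neighbour of Tlr1 that did not, and Tlr13, the most abundant member. They are the 250 bases before the start of transcription in RefSeq on build GRCm38.p6, written 5′ to 3′ on the gene's strand. They lie at chr5:64933559-64933808 (minus strand) for Tlr1, chr3:83841609-83841858 (minus strand) for Tlr2, chr5:64959167-64959416 (minus strand) for Tlr6 and chrX:106143025-106143274 (plus strand) for Tlr13. The gene spans given above are those of GENCODE, whose starts differ from these RefSeq starts. The Tlr6 stretch lies wholly inside the span of Tlr6. Those of Tlr2, Tlr13 and, by a few bases, Tlr1 lie partly inside the spans of their genes. Capitals mark matches, on either strand, to any of 4 motifs: GAGGAA, the core bound by the myeloid factor PU.1, GGGNNTTCC of NF-kB type, GAAANNGAA of interferon response type, and TGAGTCA of AP-1.
Tlr1: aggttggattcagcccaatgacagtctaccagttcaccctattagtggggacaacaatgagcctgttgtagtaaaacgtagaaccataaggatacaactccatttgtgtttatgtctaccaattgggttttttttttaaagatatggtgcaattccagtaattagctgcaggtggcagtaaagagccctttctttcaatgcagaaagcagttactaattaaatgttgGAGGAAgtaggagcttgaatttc
Tlr2: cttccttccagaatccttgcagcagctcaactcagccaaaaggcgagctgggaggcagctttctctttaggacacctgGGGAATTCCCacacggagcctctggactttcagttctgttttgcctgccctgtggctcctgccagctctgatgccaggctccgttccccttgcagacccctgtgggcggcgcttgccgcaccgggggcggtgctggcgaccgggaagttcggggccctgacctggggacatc
Tlr6: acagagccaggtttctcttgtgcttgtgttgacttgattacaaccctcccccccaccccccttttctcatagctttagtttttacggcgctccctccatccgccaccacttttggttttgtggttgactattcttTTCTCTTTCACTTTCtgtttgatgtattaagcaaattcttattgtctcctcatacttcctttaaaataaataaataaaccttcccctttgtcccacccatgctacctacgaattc
Tlr13: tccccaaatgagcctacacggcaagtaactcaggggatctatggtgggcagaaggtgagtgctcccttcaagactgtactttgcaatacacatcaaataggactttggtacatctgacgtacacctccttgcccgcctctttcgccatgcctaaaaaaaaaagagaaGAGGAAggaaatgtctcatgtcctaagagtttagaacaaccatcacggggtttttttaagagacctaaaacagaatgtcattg
The table held 10 promoters of 8 members, namely Tlr1, Tlr2, Tlr3, Tlr5, Tlr6, Tlr8, Tlr9 and Tlr13, with 2 starts each for Tlr1 and Tlr6. Tlr4 and Tlr7 had no entry. The NF-kB type motif was found in the promoter of Tlr2 alone among these members, where the palindromic stretch matches on both strands, beside 4.98% of all 32851 promoters of this length. GAGGAA was found for Tlr1, Tlr8, Tlr9 and Tlr13, beside 23.3% of all promoters. The Tlr1 match begins 23 bases before the start and the Tlr13 match 83 bases before it. GAAANNGAA was found for Tlr6 and Tlr8, beside 7.13% of all promoters. For Tlr6 it had 2 overlapping matches on the opposite strand, inside the GENCODE span of the gene. TGAGTCA was found for Tlr9, beside 4.46%. The other promoters of Tlr1 and Tlr6 and those of Tlr3 and Tlr5 held none of the 4. No match to 1 motif overlapped a match to another. A match is a description of these letters, and binding was not measured.

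The mouse genes Tlr11 and Tlr12, endosomal receptors for a parasite profilin that stand outside the 10 members, were both below the filter. Tlr11 had 62 reads in the PDR pool and 42 reads in the SKYD pool, and Tlr12 had 41 reads and 86 reads.

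Genes that work with the members were compared in lists ordered by their role. Among 6 surface co-receptors compared, 1 was more than 2-fold higher in the PDR pool and 1 in the SKYD pool, with a median difference of -0.46 that was -0.11 without a filter and -0.80 at a mean FPKM of at least 5. Cd14, which hands lipopolysaccharide to Tlr4 and lipoproteins to Tlr2, had 149 FPKM in the PDR pool and 938 FPKM in the SKYD pool, the direction opposite to Tlr2 and Tlr4. Cd180, a relative of Tlr4 known from B cells, had 7.36 FPKM in the PDR pool and 1.35 FPKM in the SKYD pool, while its partner Ly86 had 160 FPKM and 166 FPKM. By FPKM, Lbp was 2.07-fold higher in the SKYD pool, though not past 2-fold on the log2(FPKM + 1) scale (-0.95). All 7 genes for the folding and trafficking of endosomal members stayed within 2-fold, with a median of 0.30. Ctss, a protease that processes endosomal members, had 2184 FPKM in the PDR pool and 2439 FPKM in the SKYD pool, and the chaperone Hsp90b1 had 139 FPKM and 111 FPKM.

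Downstream of the members, 1 of 5 TIR adaptors compared was more than 2-fold higher in the PDR pool (median 0.47, or 0.27 without a filter). This was Pik3ap1 with 21.2 FPKM in the PDR pool and 6.32 FPKM in the SKYD pool, while Myd88 had 52.5 FPKM and 66.1 FPKM. On the log2(FPKM + 1) scale none of 15 kinases and ubiquitin ligases passed 2-fold (median 0.37). By FPKM, Chuk was 2.22-fold and Irak2 2.25-fold higher in the PDR pool. The median of these kinases and ligases was 0.53 at a pseudocount of 0.1, and 0.60 with recovered reads and no pseudocount. The most abundant of these were Ube2n, with 57.8 FPKM and 58.8 FPKM, and Tank, with 22.0 FPKM and 11.8 FPKM. Of 12 transcription factors, 4 passed 2-fold toward the PDR pool (median 0.41): Irf7 at 1.04, Irf8 at 1.27, Nfkb2 at 1.18 and Relb at 1.04. The most abundant, Fos and Irf5, had differences of -0.0012 and 0.45. Rel, at 0.92, did not pass 2-fold on this scale, although its FPKM was 3.54-fold higher in the PDR pool. Of 12 inhibitors compared, 1 was more than 2-fold higher in the PDR pool, Nfkbie at 1.01. Past 2-fold toward the SKYD pool were 2, Nfkbia at -1.07 and Dusp1 at -1.30. The median of the 12 was 0.098, and from 0.050 to 0.18 under the alternatives. By FPKM, Cyld was also 2.84-fold higher in the PDR pool and Socs1 2.17-fold higher in the SKYD pool.

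Of 19 target genes of the receptors compared, 9 passed 2-fold toward the PDR pool and 2 toward the SKYD pool. Among all genes compared, the shares were 7.38% and 6.91%. The target genes had a median of 0.93, or 0.59 without a filter. The ratio of their summed reads per 1000000, 0.402, rests on Saa3, which held 27911 of 46179 reads in the PDR pool and 115085 of 126583 reads in the SKYD pool. The 9 were Acod1 (3.90), Cxcl10 (3.37), Tnf (1.71), Ccl5 (1.69), Ccl4 (1.68), Il12a (1.61), Il12b (1.52), Cd40 (1.13) and Il10 (1.03), each given by its difference. Saa3 had 456 FPKM in the PDR pool and 1767 FPKM in the SKYD pool, Socs3 had a difference of -1.12, and Il1b had 89.8 FPKM and 71.1 FPKM. Below the filter, Ifnb1 had 0 reads in the PDR pool and 12 reads in the SKYD pool, 2.61-fold or more by the exact limits. In the other direction, Ptgs2 had 57 reads and 2 reads and Nos2 12 reads and 2 reads, while Il23a had 0 reads in both. Of 11 other innate sensors compared, 2 passed 2-fold toward the PDR pool, Clec7a at 1.23 and Zbp1 at 1.31. Their list had a median of 0.56, or 0.36 among protein-coding genes, and Clec4n had 73.3 FPKM and 86.4 FPKM. By FPKM, Ddx58 was also 2.13-fold higher in the PDR pool. Of the sensors below the filter, Nod2 had 3 reads in the PDR pool and 47 reads in the SKYD pool. Its FPKM was 14.7-fold higher in the SKYD pool (4.74 to 73.9). The others below the filter were higher in the PDR pool: Nlrc4 2.05-fold, Ifih1 1.93-fold and Nlrp3 1.62-fold (0.930 to 2.87).

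**Figure D5:**
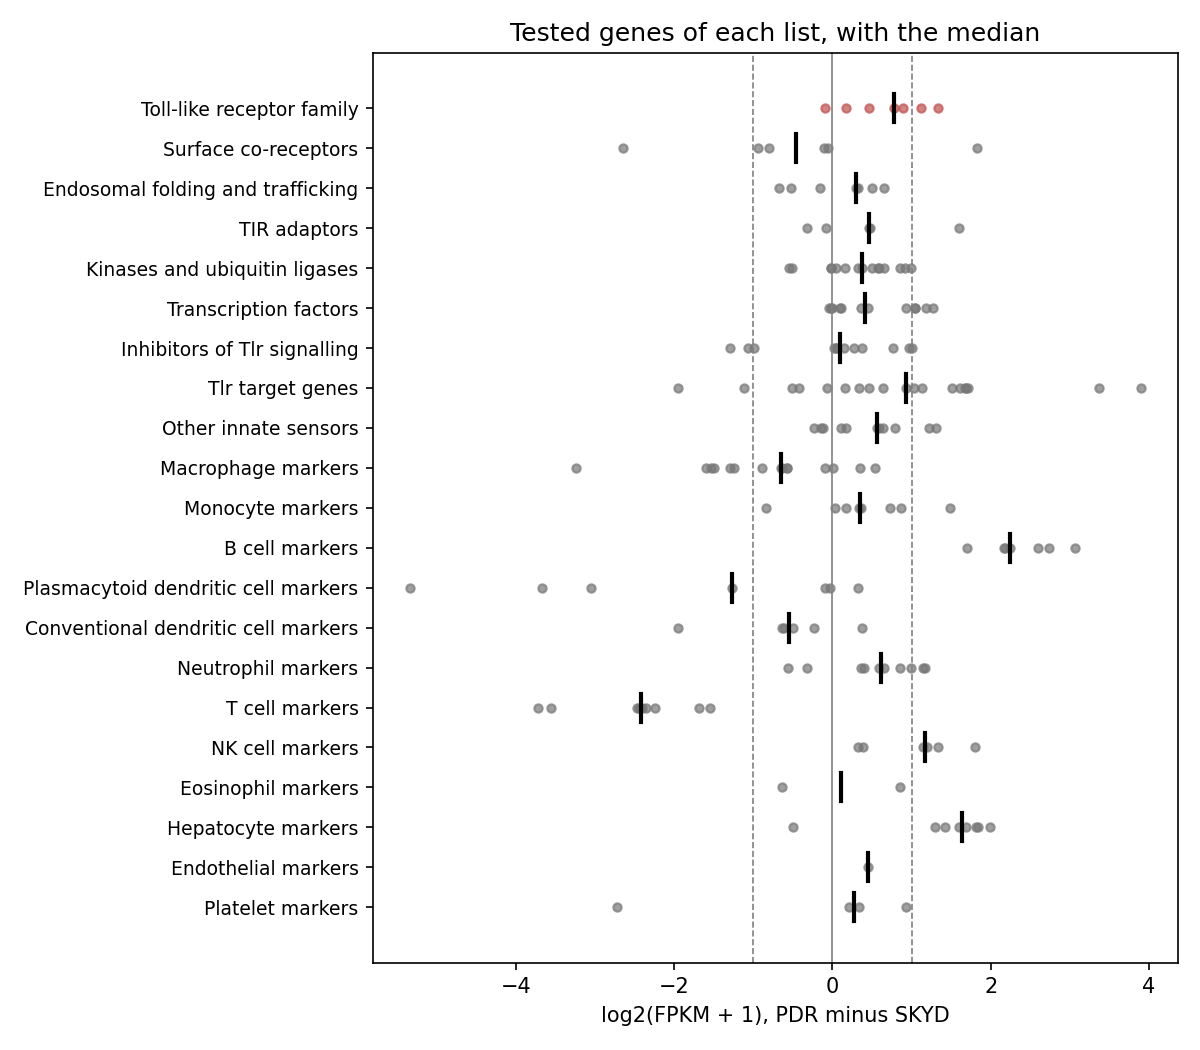
Difference in log2(FPKM + 1), PDR minus SKYD, of every gene with a mean FPKM of at least 1 in the receptor family (red) and in each list (grey), with the median of each as a black bar, a solid line at 0 and dashed lines at 2-fold. The members lie between -0.094 and 1.34, and the medians of the marker lists run from -2.42 for T cells to 2.25 for B cells.

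The libraries were labelled macrophages, and several genes that mark macrophages were abundant in both, while others such as Cd163, with 0.741 FPKM and 3.29 FPKM, and Mrc1, with 1.60 FPKM and 3.09 FPKM, were low. The F4/80 gene Adgre1 had 87.3 FPKM in the PDR pool and 93.3 FPKM in the SKYD pool. The CD11b gene Itgam had 8.84 FPKM and 14.4 FPKM, and Csf1r, the receptor for a macrophage growth factor, had 57.7 FPKM and 44.9 FPKM. Of 15 macrophage markers compared, 6 passed 2-fold toward the SKYD pool and 0 toward the PDR pool (median -0.66), and the most abundant, Lyz2, had 22217 FPKM and 41336 FPKM. Of the 7 members compared, 6 thus lay on the other side of 0 from the median of this list. Relative to Adgre1, the level of Tlr13 was 38.6% in the PDR pool and 20.5% in the SKYD pool, that of Tlr2 27.3% and 11.2%, that of Tlr4 14.9% and 7.02%, and that of Tlr1 14.5% and 4.72%. Relative to Csf1r or Lyz2, these 4 were also higher in the PDR pool. For Tlr8 and Tlr6 the direction depended on the gene chosen. Tlr8 had 2.99% and 3.06% of Adgre1, 4.53% and 6.36% of Csf1r, and 0.0118% and 0.00691% of Lyz2. Tlr6 had 4.53% and 4.92% of Csf1r, and 0.0118% and 0.00535% of Lyz2.

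Markers of other cell types were abundant too, which the label of macrophages alone does not cover. All 7 B cell markers compared passed 2-fold toward the PDR pool, the direction of Tlr1 and Tlr2, with a median of 2.25 and 1725 against 391 summed FPKM over all 10. Cd79b had 802 FPKM in the PDR pool and 168 FPKM in the SKYD pool, Cd79a 582 FPKM and 178 FPKM, and Ms4a1 196 FPKM and 22.5 FPKM. Tlr9 and Tlr7 are known from B cells and plasmacytoid dendritic cells, and Tlr1 from B cells. Relative to Cd79b, Tlr1 was lower in the PDR pool, at 1.58% against 2.62%, as were Tlr7, at 1.55% against 5.24%, and the other members compared. Tlr9, on few reads, had 0.0107% against 0.00684%. Monocyte markers had a median of 0.35, or 0.54 at a mean FPKM of at least 5, and 7 of 8 were higher in the PDR pool. Past 2-fold was 1 of them, Ly6c2 with 1436 FPKM and 512 FPKM, and Chil3, the most abundant, had 2264 FPKM and 1245 FPKM. Their summed FPKM was 3873 in the PDR pool and 1922 in the SKYD pool, most of it from Chil3 and Ly6c2. The 1 monocyte marker higher in the SKYD pool was F13a1, with 21.7 FPKM in the PDR pool and 39.7 FPKM in the SKYD pool (-0.84). Ccr2 hardly differed, with 83.2 FPKM and 81.1 FPKM (0.037).

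Neutrophils also carry Tlr2 and Tlr4, and 2 of 10 neutrophil markers passed 2-fold toward the PDR pool (median 0.62, summed FPKM 4855 and 3731). S100a9 had 2209 FPKM in the PDR pool and 1677 FPKM in the SKYD pool, S100a8 had 1911 FPKM and 1483 FPKM, and Ly6g had 10.5 FPKM and 4.20 FPKM. The other direction was taken by 2 of the 10, Mmp8 with 66.9 FPKM and 98.9 FPKM and Retnlg with 172 FPKM and 215 FPKM. Of 7 plasmacytoid dendritic cell markers compared, 4 passed 2-fold toward the SKYD pool (median -1.28, and from -2.17 to -0.69 under the alternatives), with Siglech at 0.491 FPKM and 11.4 FPKM and the most abundant, Ly6d, at 1025 FPKM and 1045 FPKM. Tlr7 was higher in the PDR pool, as was 1 of these 7 markers, Tcf4, with 1.46 FPKM and 0.967 FPKM (0.32). Of 6 conventional dendritic cell markers, 1 was more than 2-fold higher in the SKYD pool (median -0.55, or -0.36 without a filter), Cd209a with 42.4 FPKM and 167 FPKM. The other direction was taken by 1 of the 6, Naaa with 46.7 FPKM in the PDR pool and 35.7 FPKM in the SKYD pool (0.38).

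All 10 T cell markers passed 2-fold toward the SKYD pool (median -2.42; Cd8b1 39.7 FPKM and 535 FPKM), opposite to Tlr1 and Tlr2. Higher by that much in the PDR pool were 4 of 6 NK cell markers (median 1.17; Gzma 256 FPKM and 115 FPKM) and 7 of 8 hepatocyte markers (median 1.64; Apoa2 793 FPKM and 294 FPKM). Platelet markers had 1 of 4 more than 2-fold higher in the SKYD pool, Pf4 with 218 FPKM and 1446 FPKM. The other 3 were higher in the PDR pool: Ppbp at 0.20, Treml1 at 0.92, and Gp9 at 0.34 with an interval that includes 0. The median of the platelet markers was 0.27, which turned to -1.26 at a mean FPKM of at least 5. Eosinophil markers had 2 genes compared, with a median of 0.11 that turned to -0.64 at a mean FPKM of at least 5. They were Prg2 with 14.5 FPKM and 23.3 FPKM and Il5ra with 4.32 FPKM and 1.94 FPKM, at differences of -0.64 and 0.86, while Epx had 0 reads in both pools. Endothelial markers had 1, Pecam1, with 3.89 FPKM and 2.57 FPKM (0.45), and the median of that list was -0.0086 without a filter. The part of any of these cell types in the differences of Tlr1, Tlr2 and the other members was not tested.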

How the data were processed

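One library a group of RNA from the pooled sorted macrophages of 5 mice was used. The authors aligned reads with TopHat 2.0.9 on a Bowtie 2.0.6 index, counted them on genes with HTSeq 0.6.1 and deposited FPKM for 54532 genes with their lengths and positions. The strand setting of counting is not given in the sources used here. The labels name mm9, but 98.3% of the 54409 genes shared with GENCODE release M21 on GRCm38 have the same start and end there, as do all 10 members, so positions are given on GRCm38.

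Reads were recovered from FPKM times gene length, which is a whole multiple of 1 value in each library, with no gene farther than 0.001 of a read from a whole number. A pseudocount of 1 was added before log2. The comparison took genes whose mean FPKM was 1 or more and counted those past 2-fold. Each list was described by its counts and its median. No p-value was computed.

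The members and lists were chosen with earlier results of these data known. Genes named are all members, Tlr11 and Tlr12, every gene of a pathway list more than 2-fold apart and its 2 most abundant genes, the most abundant marker of each cell type with up to 3 defining markers for B cells, macrophages, neutrophils and dendritic cells, and the 3 genes nearest to Tlr13. Cd163, Mrc1, Chuk, Irak2, Rel, Cyld, Socs1, Lbp, Ddx58, Ly6c2, Mmp8, Retnlg, Ppbp, Gp9, Treml1, Il5ra, Epx and Gm45542 were named after their values were seen. So were Nod2, Nlrc4, Ifih1, Nlrp3, Ifnb1, Ptgs2, Nos2, Il23a, F13a1, Ccr2, Naaa and Tcf4. Shared windows were counted in GENCODE transcripts on both strands. Promoters came from RefSeq (GRCm38.p6). Alternatives were a pseudocount of 0.1, no filter, a mean FPKM of at least 5, TPM, centring on the median, recovered reads per 1000000, protein-coding genes only and a threshold of 1.5-fold. Recovered reads were taken without a pseudocount, for genes above 3 reads in both libraries, so that setting changed several choices at once. The steps were tested on simulated data. The work was done in Python 3.11.15 with scipy 1.17.1, pandas 2.3.3, matplotlib 3.10.9 and numpy 2.4.6. Protein sequences and the other measurements of the study were not analysed here.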

Additional observations from a re-analysis of the deposited data

How the results depend on the processing

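The 7 members compared kept their directions under all 7 alternatives that give a difference, wherever they were still compared; a mean FPKM of at least 5 left 5 of them. The count of members more than 2-fold apart was 2, Tlr1 and Tlr2, under every alternative except 2 of the 8. It was 3 with recovered reads per 1000000 and no pseudocount, which added Tlr4, and 4 at a threshold of 1.5-fold, which added Tlr4 and Tlr13. The background moved too, to 10.8% and 15.1% of genes higher in the PDR pool. A pseudocount of 0.1 on FPKM, which kept the count at 2, put Tlr4 at 0.98. The median difference of the members, 0.78, was 0.46 without a filter, 0.90 at a mean FPKM of at least 5, 0.86 with recovered reads and 0.71 as TPM. The filters and TPM change which members are compared.

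Of the 20 lists with a gene compared, 15 had a median above 0, and 12 to 15 had under the alternatives. The 12 came at a mean FPKM of at least 5, where no endothelial marker was compared and that list had no median. The medians of the platelet, eosinophil and endothelial markers, with 4, 2 and 1 genes compared, changed sign under 1 alternative each, to -1.26, -0.64 and -0.0086. Medians that moved by over 1.5 times without a filter were those of the surface co-receptors (-0.11), TIR adaptors (0.27), target genes (0.59), conventional (-0.36) and plasmacytoid (-0.69) dendritic cell markers. A mean FPKM of at least 5 moved the surface co-receptors to -0.80, the inhibitors to 0.050, monocyte markers to 0.54 and plasmacytoid dendritic cell markers to -2.17. Recovered reads without a pseudocount moved the kinases to 0.60, the inhibitors to 0.18, eosinophil markers to 0.29 and plasmacytoid dendritic cell markers to -0.73. The last were -0.71 as TPM. A pseudocount of 0.1 on FPKM put the kinases at 0.53, the inhibitors at 0.12 and eosinophil markers at 0.22. Other innate sensors were 0.36 among protein-coding genes.

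With 1 library a group, leaving out a replicate and a paired analysis were not possible. Depth limits Tlr5 and Tlr9, which had 9 reads or fewer in either library.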
